A study of Mus musculus with 6 samples.

Results

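The IL-20 subfamily was followed here in whole skin of JunBΔep and control mice, as 9 genes of the 23951 in the deposited expression table. They are the ligand genes Il19, Il20, Il24 and Il22, the receptor chain genes Il20ra, Il20rb, Il22ra1 and Il10rb, and Il22ra2, which encodes a soluble binding protein. Members were found by gene symbol, and all 9 were in the table. The family was singled out with expression values of these same mice known, so its levels in the 2 genotypes are described and not tested. The data are RNA sequencing of poly(A) RNA from the skin of 3 mice labelled JunB dep and 3 labelled JunB +/+, all littermates on the C57Bl/6 strain at 6 to 7 months of age. In JunBΔep mice Junb is deleted by a Cre driven by the keratin 5 promoter, so it is lost in keratin 5-expressing epithelial cells and kept in dermal, immune and other cells. The study describes the JunBΔep skin as lesional, and the sources used here do not state whether controls carry floxed alleles or the Cre. Mice are named by genotype and by the replicate number in the labels, which runs from 0 to 2.

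IL-19, IL-20, IL-22 and IL-24 belong to the IL-10 cytokine family. IL-19, IL-20 and IL-24 signal through the pair IL-20Rα and IL-20Rβ, and IL-20 and IL-24 also through IL-22Rα1 with IL-20Rβ, while IL-22 uses IL-22Rα1 with IL-10Rβ. The receptor chains act through JAK1, TYK2 and mainly STAT3. Immune cells and keratinocytes make the ligands, and IL-22 comes mostly from lymphocytes. The chains that bind them are found largely on epithelial cells, and in skin the cytokines are known for thickening the epidermis, for antimicrobial proteins and for holding back terminal differentiation. IL-22 binding protein, the product of Il22ra2, takes up IL-22 without signalling.

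One library stood apart from the other 5. Values are FPKM, fragments scaled to the length of the transcript and the size of the library, as the authors deposited them, and those of a group are given in the order of replicates 0, 1 and 2. Controls had 59.3, 72.4 and 56.9 FPKM of Junb, and the libraries labelled JunBΔep had 129.6, 42.8 and 28.0 FPKM, so the one labelled JunBΔep replicate 0 goes against its label. Dermal and immune cells keep Junb, so this is a partial check. Krt5, a keratin of the basal layer in epidermis and in other stratified epithelia, was at 1588 to 3725 FPKM in the 6 libraries, so it does not tell skin from mucosa. In JunBΔep replicate 0, 5 markers of mucosal epithelium (Krt13, Krt4, Krt76, Sprr3 and Pax9) summed to 3798 FPKM, against 0.394 to 1.41 FPKM in the other mice. The labels give skin for all 6 mice, and whether the tissue of JunBΔep replicate 0 came from another body site was not tested. The same library lists 6 genes at 0 FPKM that are at 3 FPKM or more in each other mouse, Krt14 and S100a9 among them, so a listed 0 can be a failed estimate. Control replicate 0 held the liver genes Alb, Apoa1, Ttr and Fgb at a sum of 1446 FPKM, against at most 28.6 FPKM elsewhere. The number of reads per mouse is not known, so no counting interval is given.

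Il19 and Il24 were abundant in 1 mouse and low or listed at 0 in the rest, and Il20 followed the same mouse at a much lower level. Il19 had 0.135, 1.46 and 0.227 FPKM in controls against 136.0, 0.177 and 0.233 in JunBΔep mice. Il24 was listed at 0 in all 3 controls and in JunBΔep replicate 1, and JunBΔep replicates 0 and 2 had 102.5 and 0.0428 FPKM. The controls likewise list Il20 at 0, while the JunBΔep mice had 2.20, 0.171 and 0.0580 FPKM. JunBΔep replicate 0 was therefore the highest of the 6 mice for each of these cytokines, and it held 98.4% of the summed Il19 signal of the 6 mice and 90.6% of that of Il20. The groups overlap for Il19, since JunBΔep replicates 1 and 2 lie within the control range. They also meet at 0 for Il24. For Il20 the groups did not overlap, but JunBΔep replicates 1 and 2 were far below replicate 0.

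Il22, the ligand of the IL-22 receptor, was the scarcest of the 4. It was listed at 0 in the controls and in JunBΔep replicate 1, and replicates 0 and 2 had 0.370 and 0.0220 FPKM. C57Bl/6 mice carry a near-identical second copy, Iltifb, which is listed at 0 in all 6 mice. The sources used here do not say how reads shared by the 2 copies were counted, so the level of Il22 is uncertain. In JunBΔep replicate 0, Il19 ranked 628 and Il24 ranked 859 among the 23951 genes by FPKM, while Il20 ranked 11420 and Il22 ranked 14476. In the other 5 mice Il19 ranked between 12316 and 16264. Against the control mean of 0.607 ± 0.740 FPKM (SD, n = 3), Il19 was at 224 times in JunBΔep replicate 0 and at 0.292 and 0.384 times in JunBΔep replicates 1 and 2. The JunBΔep mean of 45.5 ± 78.4 FPKM (SD, n = 3) thus has an SD above the mean. Without JunBΔep replicate 0 the log2 difference of Il19 on the log2(FPKM + 0.5) scale turned from 2.08 (standard error 2.10) to -0.46. For Il20, Il24 and Il22 no fold is given, because all controls are listed at 0.

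**Figure D1:**
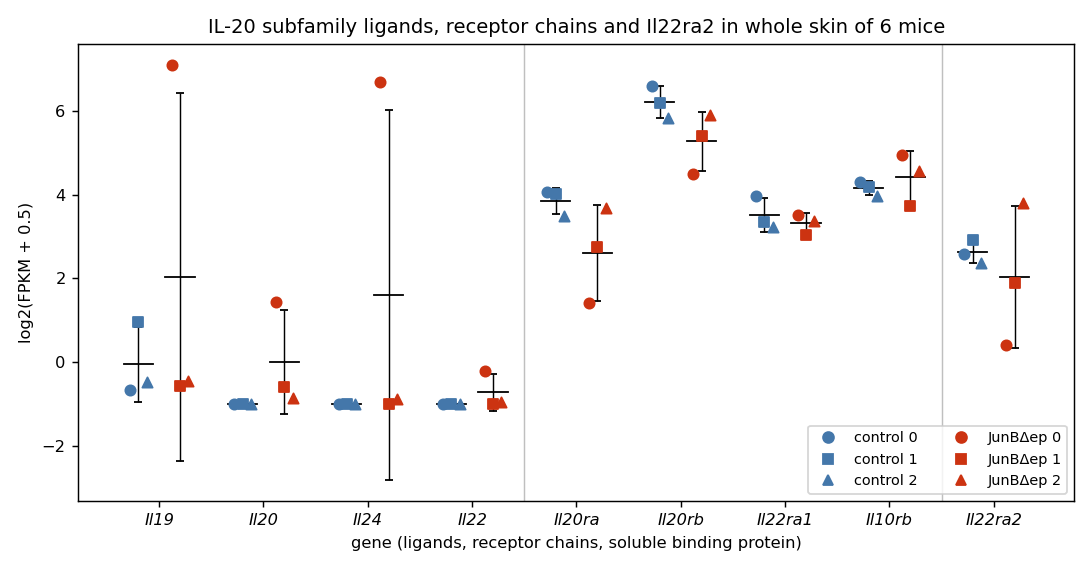
Levels of the 9 genes in each mouse as log2(FPKM + 0.5), with blue for control and red for JunBΔep mice, a marker shape for each replicate number, a black line for the group mean and bars for the SD (n = 3). JunBΔep replicate 0 is far above the other mice for Il19 and Il24 and is the lowest for Il20ra, Il20rb and Il22ra2.

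Il24, Il20 and Il19 lie side by side on the minus strand of chromosome 1, from 132778651 to 132836650 on mm9 (GENCODE annotation of that build), within 58.0 kb. Il24 spans 132778651 to 132784031, Il20 132803769 to 132807873 and Il19 132829235 to 132836650. Il10, the founding member of the family, starts 79.8 kb beyond Il19 on the plus strand. Il10 had 0.247, 0.277 and 0.0810 FPKM in controls against 1.87, 0.154 and 0.146 in JunBΔep mice. It was again highest in JunBΔep replicate 0, and its log2 difference was 0.52 (standard error 0.53, adjusted p = 0.745 from limma) with all mice and -0.10 without that mouse. On the other side, Faim3, an IgM receptor gene, ends 1.28 kb from Il24. It had 0.185, 0.0808 and 0.0142 FPKM in controls against 1.72, 0.487 and 0.0641 in JunBΔep mice (log2 difference 0.87, standard error 0.50, adjusted p = 0.722 from limma), and its difference was 0.34 without JunBΔep replicate 0.

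The steepness of the difference did not extend over the whole neighbourhood. Pigr, the transporter of IgA across epithelia, lies 29.8 kb from the cluster and had 10.1, 0.307 and 79.3 FPKM in controls against 0.00581, 0.288 and 1.07 in JunBΔep mice, with its lowest value in JunBΔep replicate 0 (log2 difference -3.36, standard error 1.61, adjusted p = 0.719 from limma). The difference of Pigr depended on the controls, at -1.77 without control replicate 2 and -5.09 without control replicate 1. It was -2.98 without JunBΔep replicate 0. Mapkapk2, a kinase gene 114 kb away, had 65.0 to 76.9 FPKM in controls against 92.5, 59.0 and 56.5 in JunBΔep mice. Of the 6 neighbours examined, 3 on each side, none was called by limma over all genes tested, and Il19 and Il24 had a larger difference from the control mean in JunBΔep replicate 0 than any of the 6.

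**Figure D2:**
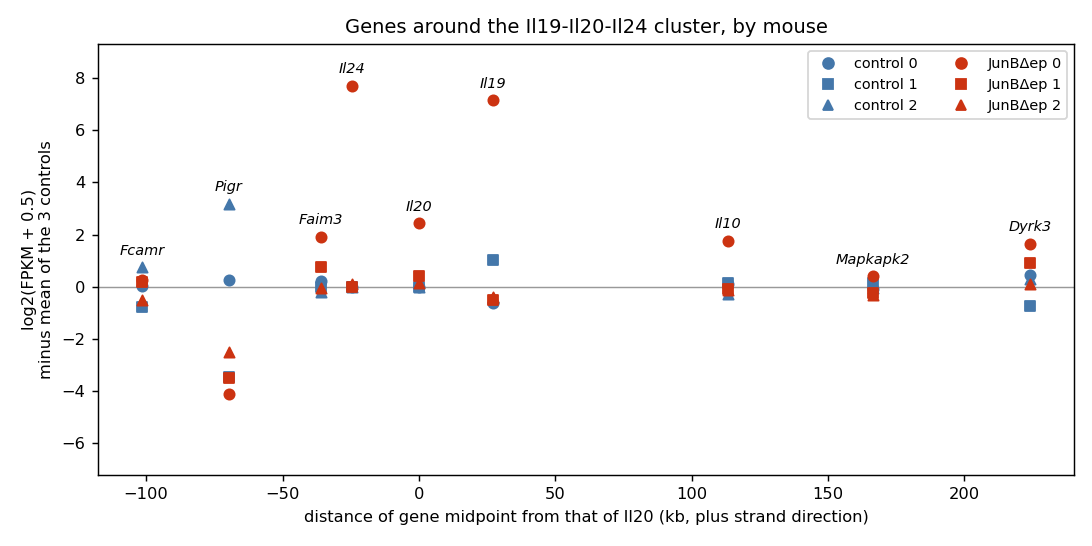
Difference of each mouse from the control mean in log2(FPKM + 0.5), for the Il19-Il20-Il24 cluster and 3 neighbouring genes on each side, against the distance of the gene midpoints in kb. Blue is control and red is JunBΔep. JunBΔep replicate 0 is high for Il24 and Il19, less so for Il20, Faim3, Il10 and Dyrk3, and low for Pigr.

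JunB is a subunit of AP-1, so the bases before the start sites were searched on both strands for TGANTCA, called the AP-1 letters here. The middle base N was left free, so a match need not be a sequence that AP-1 binds. RefSeq promoters (GRCm38.p6) were at hand for 6 of the 9 members: Il19, Il20, Il22, Il20ra, Il20rb and Il22ra1. The 250 bases before each RefSeq start were used, and each was placed on mm9 by its single exact match. The AP-1 letters stand in 2 of the 6, Il20ra and Il22ra1, and in 6.75% of the 32841 promoters of the same length. The match reads TGAGTCA in Il20ra and TGAATCA in Il22ra1, and the share of all promoters was not split by the middle base. The STAT letters TTCNNNGAA stand in Il19 alone of the 6, starting 225 bases before its start site, and in 7.02% of all promoters. A match of letters is a description and not a binding site. The ligands that were high in JunBΔep replicate 0 and the receptor chains are printed 5′ to 3′ on the strand of the gene, with AP-1 letters in capitals.
Il19 (mm9, minus strand, chr1:132836693-132836942): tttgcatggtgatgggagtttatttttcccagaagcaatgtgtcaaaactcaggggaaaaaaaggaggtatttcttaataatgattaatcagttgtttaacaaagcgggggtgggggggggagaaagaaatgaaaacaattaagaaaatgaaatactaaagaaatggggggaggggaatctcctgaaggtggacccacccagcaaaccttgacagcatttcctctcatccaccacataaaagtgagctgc
Il20 (mm9, minus strand, chr1:132807874-132808123): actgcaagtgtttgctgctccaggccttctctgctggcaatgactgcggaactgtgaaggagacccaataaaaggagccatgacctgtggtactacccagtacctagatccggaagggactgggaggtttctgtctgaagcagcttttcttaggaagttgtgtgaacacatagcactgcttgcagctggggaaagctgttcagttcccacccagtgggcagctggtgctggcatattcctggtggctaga
Il20ra (mm9, plus strand, chr10:19432143-19432392): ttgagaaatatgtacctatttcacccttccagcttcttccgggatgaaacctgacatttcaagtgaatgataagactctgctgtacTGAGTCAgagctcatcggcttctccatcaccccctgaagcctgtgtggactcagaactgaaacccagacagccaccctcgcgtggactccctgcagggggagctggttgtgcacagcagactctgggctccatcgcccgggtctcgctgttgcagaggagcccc
Il22ra1 (mm9, plus strand, chr4:135283824-135284073): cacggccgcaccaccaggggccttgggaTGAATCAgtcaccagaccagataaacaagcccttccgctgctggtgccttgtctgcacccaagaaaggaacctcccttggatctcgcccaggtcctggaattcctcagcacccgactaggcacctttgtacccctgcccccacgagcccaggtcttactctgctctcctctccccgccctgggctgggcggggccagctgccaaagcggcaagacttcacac
Il20rb (mm9, minus strand, chr9:100386893-100387142): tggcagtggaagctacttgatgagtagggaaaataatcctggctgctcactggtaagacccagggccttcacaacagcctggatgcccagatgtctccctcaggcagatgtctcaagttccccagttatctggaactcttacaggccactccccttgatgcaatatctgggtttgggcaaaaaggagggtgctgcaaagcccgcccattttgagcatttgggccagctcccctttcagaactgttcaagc
The AP-1 letters begin 164 bases before the start site of Il20ra and 222 bases before that of Il22ra1. The windows of Il19, Il20 and Il20rb hold no AP-1 letters. The RefSeq start of Il20rb lies inside the GENCODE span of the gene on mm9, so its window is upstream of the RefSeq start only.

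The receptor genes were expressed in every mouse and at higher levels than the ligands in 5 of the 6. In controls Il20rb, the chain shared by the IL-20 receptors, was the most abundant at 74.6 ± 19.95 FPKM (SD, n = 3). Il10rb followed at 17.4 ± 2.03 FPKM, Il20ra at 14.1 ± 3.00 FPKM and Il22ra1 at 11.3 ± 3.46 FPKM. The ranges of Il10rb and Il20ra overlap, as do those of Il20ra and Il22ra1, so the order of these 3 is not beyond the spread between mice, although it was the same within each of the 3 controls. Il22ra2 was lower, at 5.74 ± 1.17 FPKM, with no overlap with Il22ra1. In JunBΔep replicate 0 the order was another one, with Il19 and Il24 above every receptor gene and Il10rb above Il20rb.

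Il20ra and Il20rb, which together form the receptor for IL-19, IL-20 and IL-24, were lowest in the mouse with the most ligand. Il20ra, on chromosome 10 from 19432393 to 19479859, had 16.1, 15.6 and 10.7 FPKM in controls against 2.15, 6.21 and 12.2 in JunBΔep mice. JunBΔep replicates 0 and 1 lie below every control and replicate 2 within the control range. The log2 difference was -1.24 (standard error 0.57), and it was -0.64 without JunBΔep replicate 0. Il20rb, on chromosome 9 from 100358138 to 100387207, had 95.6, 72.4 and 55.9 FPKM in controls against 22.1, 41.8 and 59.0 in JunBΔep mice. Here too replicates 0 and 1 lie below the controls and replicate 2 within them. The log2 difference was -0.93 (standard error 0.40), and -0.55 without JunBΔep replicate 0.

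Summed over the 3 ligands Il19, Il20 and Il24, the level was 0.135 to 1.46 FPKM in controls against 240.7, 0.349 and 0.334 in JunBΔep mice. Summed over Il20ra and Il20rb it was 66.6 to 111.7 FPKM in controls against 24.3, 48.0 and 71.2 in JunBΔep mice. Ligand transcripts thus stood at 9.92 times the receptor transcripts in JunBΔep replicate 0 and at no more than 0.0166 times in each of the other 5 mice. Basal keratinocyte markers, which mucosal epithelium shares, were mixed in that library. Krt5 was at 3725 FPKM there against 1588 to 2538 FPKM in controls, Trp63 at 64.8 FPKM against 42.2 to 50.9 FPKM and Itga6 at 67.0 FPKM against 22.4 to 27.6 FPKM, while Krt14 is listed at 0. Per 1000 FPKM of Krt5, Il20ra was at 6.15 to 7.34 in controls and at 0.578, 3.84 and 7.37 in JunBΔep replicates 0, 1 and 2, and Il20rb at 28.5 to 43.5 and at 5.94, 25.9 and 35.6. In whole skin, fewer expressing cells and less RNA per cell cannot be told apart. The part of the mucosal markers in these levels was not tested.

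Il22ra1, the IL-22 binding chain on chromosome 4 from 135284087 to 135308055, had overlapping groups. It had 15.2, 9.72 and 8.83 FPKM in controls against 10.99, 7.76 and 9.81 in JunBΔep mice, with a log2 difference of -0.20 (standard error 0.26). Its nearest relative on that chromosome is Ifnlr1, 19.99 kb away, which encodes the interferon lambda receptor and was at 4.96 to 6.60 FPKM in controls against 4.44 to 7.21 in JunBΔep mice. Il10rb, the common second chain on chromosome 16 from 91406409 to 91426074, had 19.2, 17.7 and 15.2 FPKM in controls against 30.4, 12.7 and 22.9 in JunBΔep mice. JunBΔep replicates 0 and 2 lie above and replicate 1 below all controls, and the log2 difference was 0.26 (standard error 0.33) with all mice and -0.01 without JunBΔep replicate 0. In the GENCODE annotation of mm9 Il10rb overlaps Ifnar2 by 13.3 kb, so reads of the 2 genes may have been shared. Ifnar2 had 13.9 to 21.6 FPKM in controls against 24.8, 11.3 and 31.7 in JunBΔep mice.

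Because both values come from 1 library, a ratio of 2 receptor genes does not depend on how libraries were scaled. The ratio of Il20ra to Il22ra1 was 1.06 to 1.61 in controls and 0.196, 0.799 and 1.24 in JunBΔep replicates 0, 1 and 2. That of Il20rb to Il22ra1 was 6.28 to 7.45 in controls and 2.01, 5.38 and 6.01 in the JunBΔep mice, all 3 below all controls. JunBΔep replicate 2 is only narrowly below them. How often a ratio of 2 genes separates the groups over all genes was not worked out, so no weight is put on it. Il20ra and Il20rb also differed between themselves, as Il20rb stood at 4.64 to 5.93 times Il20ra in controls and at 10.3, 6.73 and 4.83 times in JunBΔep mice. JunBΔep replicate 0 lies outside the control range in each of these ratios, and replicate 2 inside it for Il20ra to Il22ra1 and Il20rb to Il20ra.

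**Figure D3:**
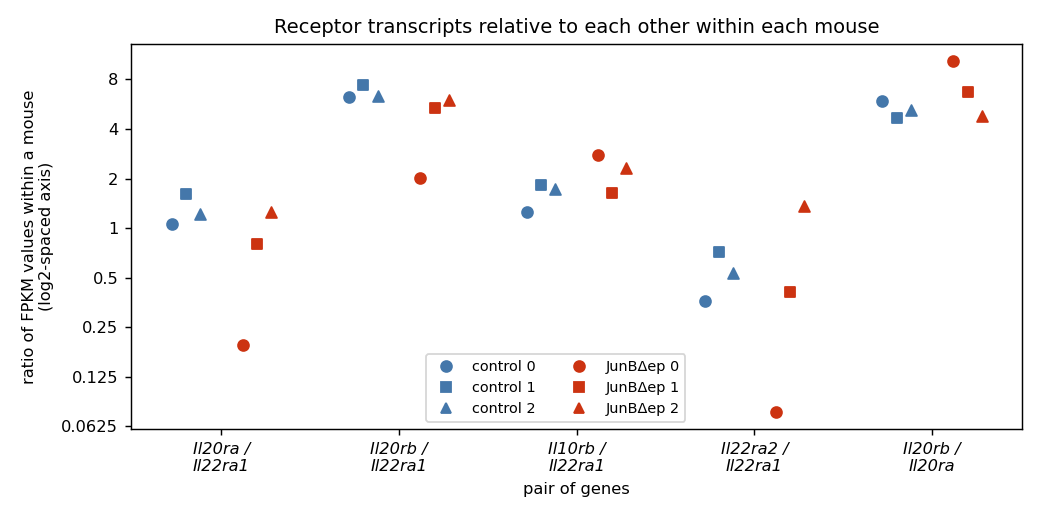
Ratio of the FPKM values of 2 receptor genes within each mouse on a log2-spaced axis, with blue for control and red for JunBΔep mice. JunBΔep replicate 0 has the lowest ratio to Il22ra1 for Il20ra, Il20rb and Il22ra2 and the highest for Il10rb, and the highest ratio of Il20rb to Il20ra.

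Il22ra2, the gene of the IL-22 binding protein, differed between JunBΔep mice by a larger ratio of highest to lowest FPKM than any receptor chain did. It lies on chromosome 10 from 19341804 to 19354487, 77.9 kb from Il20ra and 11.8 kb from the interferon gamma receptor gene Ifngr1. It had 5.51, 7.00 and 4.70 FPKM in controls against 0.842, 3.19 and 13.4 in JunBΔep mice. The JunBΔep mice lie on both sides of the control range, and the log2 difference was -0.59 (standard error 0.82), or 0.21 without JunBΔep replicate 0. The ratio of Il22ra2 to Il22ra1 was 0.362 to 0.720 in controls and 0.0767, 0.410 and 1.36 in JunBΔep mice. The adipocyte markers Adipoq, Plin1 and Fabp4 were likewise lowest in JunBΔep replicate 0 and highest in replicate 2. Their sum was 57.8 FPKM in JunBΔep replicate 0, 1957 FPKM in replicate 1, 8433 FPKM in replicate 2 and 1069 to 3431 FPKM in controls. In replicate 1 the markers lay within the control range, while Il22ra2 was below every control. The part of the adipocyte markers in the level of Il22ra2 was not tested.

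Over all genes, JunBΔep and control mice were compared with limma on log2(FPKM + 0.5) in the 17021 genes that averaged 0.1 FPKM or more. The share called at an adjusted p below 0.05 was 1.38%, with each of these genes lower in JunBΔep mice. That number, 235 genes, was 0 when any of the controls or JunBΔep replicate 1 was left out, and 125 without JunBΔep replicate 0. Of the 9 members, 8 were in the fit and Il22 was below the filter. The groups did not overlap in 14.8% of tested genes (5.62% higher and 9.16% lower in JunBΔep mice) and in 1 of the 8 members, Il20. JunBΔep replicate 0 was above all 5 other mice in 29.7% of tested genes and below all of them in 31.8%, and it was highest for 4 and lowest for 3 of the 8 tested members. No weight is put on these counts, as the family was chosen from this contrast. The smallest two-sided p that an exact permutation test of a single gene can give at 3 mice a group is 0.1.

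The pattern of each member over the 6 mice was compared with those of 13735 other genes that average at least 1 FPKM, by the share of the gene's 6-mouse sum that falls to each mouse. The likeness is the sum of the 6 absolute differences in share, where 0 is the same pattern, and it rests on 6 libraries of which 1 stands apart. Nearest to Il24 were Sprr3, Dynap and Krt13, at 0.000724 to 0.000835. Sprr3 and Krt13 are 2 of the mucosal markers, at 398 and 1990 FPKM in JunBΔep replicate 0. Nearest to Il19 were Tmprss11g, Lce3d and Ccl3 (0.0164 to 0.0193), and nearest to Il20 were Stfa2, Cemip and Rnf183 (0.0538 to 0.0903). Nearest to Il20ra were Ptpn21, Serpinb7, an epidermal serpin, and Mrgprb2, a mast cell receptor gene (0.0495 to 0.0642). For Il20rb they were Lhpp, Agfg2 and Bbox1 (0.0494 to 0.0706). For Il22ra2 they were Mfng, C130074G19Rik and Mlxipl, the last a transcription factor of lipogenic tissues (0.0586 to 0.0686). Il22ra1 was nearest to A630001G21Rik, Rdh9 and Zbp1 (0.0517 to 0.0679), and Il10rb to Mfsd7a, Cxcl12 and Csf2ra (0.0461 to 0.0618).

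The 6 lists of other pathway genes, 55 in all, were read from the same fit. Of these, 54 were in the table, 50 were tested and 0 were called by limma at an adjusted p below 0.05, where 1.38% of all tested genes were called. At an unadjusted p below 0.05 there was 1, Stat5b, which is 2% of the 50, against 7.56% of all tested genes. That comparison turned over with a block taken from the numbering within sample titles, where 8 of the 50, or 16%, passed against 8.95% of all tested genes. By that numbering JunBΔep replicate 0 falls in a series with control replicates 0 and 1. JunBΔep replicates 1 and 2 fall in the other series with control replicate 2. The blocked values thus lean on JunBΔep replicate 0, the only JunBΔep mouse of its series. JunBΔep replicate 0 was the highest of the 6 mice for 32 and the lowest for 11 of the 50, where over all tested genes it was highest in 29.7% and lowest in 31.8%. Among the other class II cytokine and receptor genes, 8 of 11 were tested, 6 had a positive log2 difference and the median was 0.15, beside 0.03 over all genes. Ifnl2 and Iltifb were listed at 0 in all 6 mice.

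JAK and STAT genes carry the signal of these receptors into the nucleus. All 10 on the list were tested, with 6 positive and a median log2 difference of 0.07. Stat3, the main STAT of the family, had 41.7, 40.02 and 37.2 FPKM in controls against 113.8, 31.5 and 50.4 in JunBΔep mice (log2 difference 0.51, standard error 0.45, adjusted p = 0.725 from limma). The feedback inhibitor Socs3 had a log2 difference of 1.40 (standard error 0.66, adjusted p = 0.718 from limma) and Socs1 one of 0.90 (standard error 0.59, adjusted p = 0.722 from limma), and both were highest in JunBΔep replicate 0. Leaving out that mouse moved Stat3 to 0.01, Socs3 to 0.65 and Socs1 to 0.24. Stat5b had 17.01, 16.1 and 14.2 FPKM in controls against 7.46, 7.44 and 13.1 in JunBΔep mice, below every control in all 3 (log2 difference -0.77, standard error 0.26, adjusted p = 0.487 from limma). Such a separation, with JunBΔep mice lower, was found in 9.16% of all tested genes. Jak1 had 28.3 to 32.4 FPKM in controls against 45.8, 17.8 and 25.7 in JunBΔep mice. Tyk2 had 8.03 to 12.0 FPKM in controls against 9.98, 9.88 and 11.6 in JunBΔep mice.

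Keratinocyte genes known to be raised by IL-20, IL-22 or IL-24 were mostly high in JunBΔep replicate 0. Some were also high in control replicate 0, which had little Il19 and lists Il24 at 0: S100a8 was at 744 FPKM, S100a9 at 698 FPKM and Lcn2 at 222 FPKM there, above JunBΔep replicates 1 and 2. Neutrophils also express these 3 genes, and the neutrophil markers Csf3r, Cxcr2, Mmp8 and Mmp9 summed to 29.3 FPKM in control replicate 0 against 11.3 and 8.35 FPKM in the other controls, and to 129 FPKM in JunBΔep replicate 0. Their part in these levels was not tested. All 16 were tested, 13 had a positive log2 difference, and the median was 1.73. Against the control mean the median over the list was 4.90, 0.14 and 0.27 in the JunBΔep mice. The median log2 difference became 0.34 when JunBΔep replicate 0 was left out, with 9 of 14 tested genes positive. Of the 16, 12 were highest in that mouse and the other 4, S100a9, Krt6a, Krt6b and Krt16, are listed at 0 there. Hbegf, a growth factor for keratinocytes, had 2.97, 3.45 and 3.15 FPKM in controls against 81.4, 5.52 and 4.16 in JunBΔep mice, above every control in all 3 (log2 difference 1.84, standard error 1.08, adjusted p = 0.722 from limma). The β-defensin gene Defb14 had 4.81, 6.21 and 4.81 FPKM in controls against 467.8, 7.88 and 9.19 in JunBΔep mice, likewise above every control (log2 difference 2.55, standard error 1.55, adjusted p = 0.722 from limma). Groups failed to overlap in 14.8% of all tested genes. When JunBΔep replicate 0 was left out, the log2 difference was 0.53 for Hbegf and 0.65 for Defb14. Saa3, a serum amyloid gene, had 9.67, 2.09 and 1.31 FPKM in controls against 3720, 24.0 and 3.37 in JunBΔep mice. Krt17, a keratin of stressed epidermis, had 626 to 837 FPKM in controls against 4025, 1319 and 713 in JunBΔep mice.

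Of the 6 differentiation genes known to be lowered by these cytokines, 5 were in the table and tested, with 3 negative and a median log2 difference of -0.23. Flg2, a filaggrin relative, had 139, 87.0 and 91.8 FPKM in controls against 3.08, 68.2 and 101 in JunBΔep mice (log2 difference -1.83, standard error 1.25, adjusted p = 0.722 from limma). Lor, which encodes loricrin of the cornified envelope, had 2335, 3011 and 1408 FPKM in controls against 823, 1829 and 2316 in JunBΔep mice (log2 difference -0.50, standard error 0.52, adjusted p = 0.75 from limma). Both were lowest in JunBΔep replicate 0, and without it the differences were -0.31 for Flg2 and -0.06 for Lor. Hrnr and Krt1, of the same list, were highest there, at 24.2 and 4466 FPKM.

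The list of upstream cytokines held Il23a, Il12b, Il1b, Il6, Tnf and Tgfb1, and whether each of them raises the ligands was not tested. Of these 6, all but Il12b were in the fit, and each of the 5 was at its highest in JunBΔep replicate 0. All 5 had a positive log2 difference, with a median of 1.29, and the median was -0.01 without that mouse. Il6 had 0.148, 0.266 and 0.175 FPKM in controls against 31.8, 0.0927 and 0.132 in JunBΔep mice, and its log2 difference of 1.72 (adjusted p = 0.725 from limma) became -0.18 without JunBΔep replicate 0. Il23a, a subunit of IL-23, which drives IL-22 in lymphocytes, had a log2 difference of 1.29 (standard error 0.93, adjusted p = 0.722 from limma), or 0.17 without that mouse. Among the 6 type 17 and type 22 lymphocyte genes 3 were positive and the median was 0.03, and 1 of 4 was positive with a median of -0.44 when JunBΔep replicate 0 was left out. Ahr, a receptor needed for IL-22 production, had 7.03 to 10.9 FPKM in controls against 5.81, 3.49 and 6.79 in JunBΔep mice, below every control in all 3 (log2 difference -0.64, standard error 0.31, adjusted p = 0.719 from limma). Over all tested genes, 9.16% were lower in JunBΔep mice with no overlap of the groups. Without JunBΔep replicate 1 the log2 difference of Ahr was -0.38. Which cells of the skin expressed Ahr was not tested. Il17a, made by the same lymphocytes as IL-22, was listed at 6.17, 0 and 0.122 FPKM for JunBΔep mice, and no control exceeded 0.0197 FPKM.

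Markers of the cells that make the ligands differed in direction. The T cell markers Cd3d, Cd3e, Cd3g and Cd2 summed to 12.7 FPKM in JunBΔep replicate 0, the lowest of the 6 mice, with 14.1 and 26.9 FPKM in JunBΔep replicates 1 and 2 and 15.9 to 38.9 FPKM in controls. The macrophage and monocyte markers Lyz2, Csf1r, Cd68 and Emr1 summed to 643 FPKM in JunBΔep replicate 0, while the other JunBΔep mice had 85.4 and 207 FPKM and controls 214 to 447 FPKM. Lyz2 alone gave 557 of the 643 FPKM, and Csf1r and Emr1 lay within the control range in that mouse. The neutrophil markers summed to 129 FPKM in JunBΔep replicate 0, where all 4 were at their highest, while the other JunBΔep mice had 5.76 and 11.9 FPKM and controls 8.35 to 29.3 FPKM. Their part in the levels of Il19 and Il24 was not tested. Skeletal muscle markers were low in all 3 JunBΔep mice, at 1092 to 2742 FPKM against 11863 to 15249 FPKM in controls. By limma 3 of these 4 were called lower, beside 1.38% of all tested genes, and no gene was called lower when any control or JunBΔep replicate 1 was left out or with either block. Fibroblast markers lay at 467 to 959 FPKM against 562 to 1758 FPKM.

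**Figure D4:**
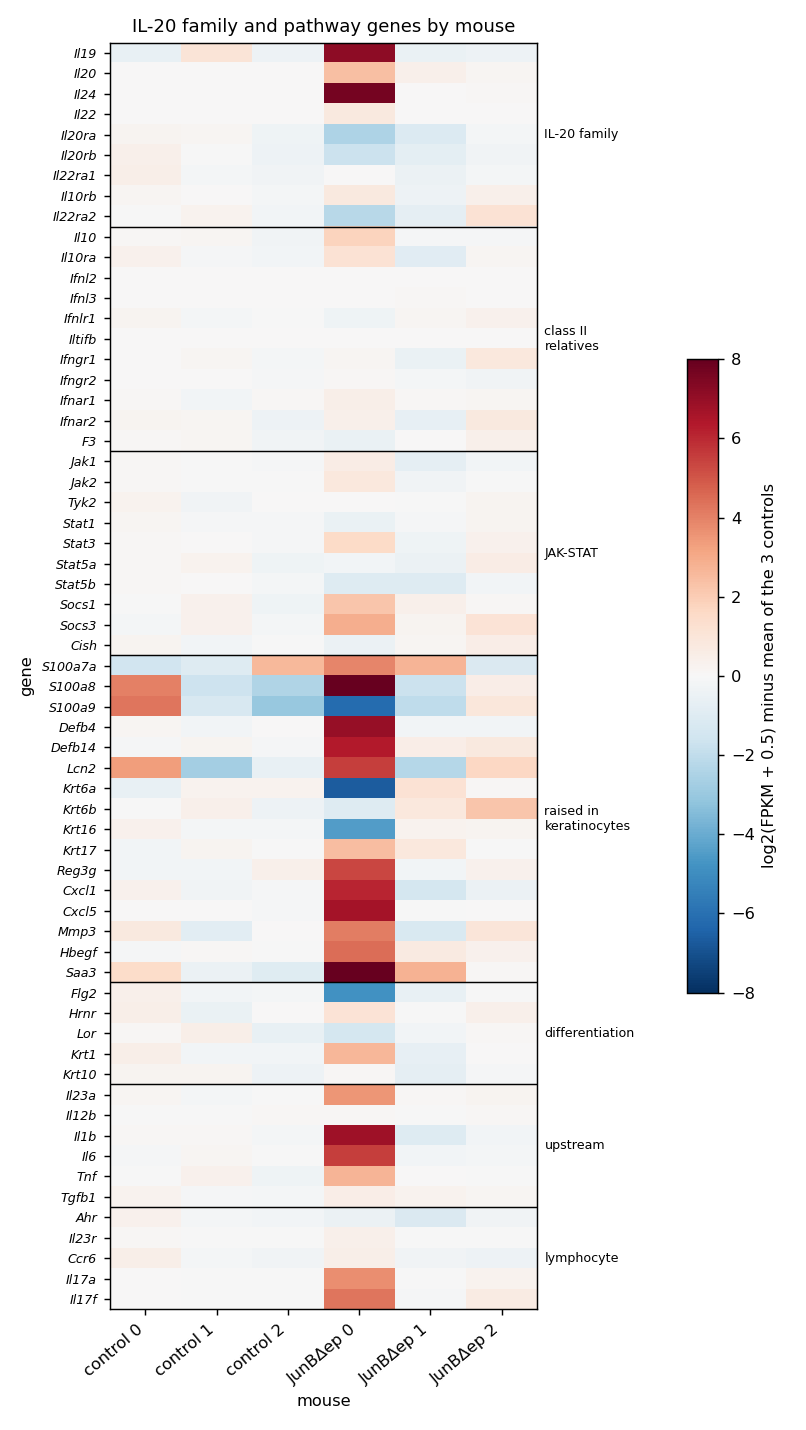
Difference of each mouse from the control mean in log2(FPKM + 0.5) for the 9 members and the pathway genes in the table but 1, with mice in columns and genes in rows grouped by list. Red is above and blue below the control mean, and colours stop at 8 in either direction. The darkest reds are in the column of JunBΔep replicate 0, which also has blue for Il20ra, Il20rb, Il22ra2 and Flg2 and for S100a9, Krt6a and Krt16, which are listed at 0. Control replicate 0 is red for S100a8, S100a9 and Lcn2, and JunBΔep replicate 1 for Saa3 and S100a7a. Control replicate 2 is red for S100a7a as well, at 2.57 against 2.70 in JunBΔep replicate 1.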

How the data were processed

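The authors checked reads with FastQC, aligned them to mm9 with TopHat2 2.0.10, Bowtie 1.0.0 and SAMtools 0.1.19 (per the submitters' processing notes), and deposited 1 FPKM value per gene and mouse. Cufflinks is also named there, with no role given, and the sources used here do not say whether libraries were rescaled. FPKM values were used as deposited and sum to 481078 to 630363 per mouse. Read counts, on which the study ran DESeq2, were not analysed here.

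On the log2(FPKM + 0.5) scale, which understates differences of low genes, the genotypes were compared by limma 3.58.1 (R 4.3.3, variance trend on). Genes averaging under 0.1 FPKM were left out, which kept 17021. P-values are two-sided and were adjusted by Benjamini and Hochberg over all of these, with every mouse used and no block. The procedure was also run on simulated data, but the outcome is not given and is not used to judge these libraries. Members and gene lists were chosen with earlier results of these data known. The genes named are the members, Junb, genes of the hand-written lists, neighbours and the 3 genes of nearest pattern. Positions are from GENCODE vM1 on mm9. Alternatives were other pseudocounts, filters and scalings, no trend, blocks, and each mouse left out. Flg and Ly6g were not found in the table by symbol. A gene of the lymphocyte list is counted there but not reported here by itself. No column was left unused. Python 3.11.15, pandas 2.3.3 and matplotlib 3.10.9 made tables and figures.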

Additional observations from a re-analysis of the deposited data

How the results depend on the processing

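Among the members, Il20ra and Il20rb were lower in JunBΔep mice under all 17 alternatives, at -1.77 to -0.64 and -1.25 to -0.55 on the log2 scale with 1 mouse left out. Il19 ranged from -0.46 to 3.37, Il22ra2 from -1.47 to 0.21, Il22ra1 from -0.35 to 0.02 and Il10rb from -0.01 to 0.60 with 1 mouse left out. Il20, at 1.00 on the log2(FPKM + 0.5) scale, moved to 2.21 with a pseudocount of 0.1, and neither is a fold since controls are listed at 0. With the block on the title series Il19 was at 3.44 (2.08 without it), Il10rb at 0.44 (0.26), Il22ra2 at -0.93 (-0.59) and Il22ra1 at -0.08 (-0.20). The values with this block lean on JunBΔep replicate 0, the only JunBΔep mouse of its series. Il20 and Il24 are below the filter without JunBΔep replicate 0, so they have no value there.

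The number of genes called lower, 235, was 0 with a replicate block on the replicate number, 0 with a block taken from the numbering within sample titles, and 0 to 254 with 1 mouse left out (0 without control replicate 0, 1 or 2 or JunBΔep replicate 1, and 125 without JunBΔep replicate 0). The number called higher was 0 to 10, the 10 without JunBΔep replicate 0. Of the pathway genes, 0 were called by limma under every alternative run. Deviations of mice with the same replicate number correlated at 0.12, -0.23 and -0.43, so the number was not taken to pair them.

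Of Junb and the list genes followed, 5 turned sign, none of them called. Junb was at 0.14 with the block on the title series and at -0.84 to 0.25 with 1 mouse left out. Il10 was at -0.10 to 0.84, Il6 at -0.18 to 2.70, Krt6a at -3.26 to 0.65 and Krt16 at -2.13 to 0.26 with 1 mouse left out. With a 0 beside at least 3 FPKM in the other 5 mice taken as missing, an alternative chosen after seeing the data, Krt6a was at 0.65, Krt16 at 0.26 and 238 genes were called lower. The cause was not tested.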
